A study of Arabidopsis thaliana with 67 samples.

Results

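The 10 Arabidopsis thaliana genes described here mark or control the boundaries between shoot organs: CUC1 (AT3G15170), CUC2 (AT5G53950), CUC3 (AT1G76420), LAS (AT1G55580), LOF1 (AT1G26780), LOB (AT5G63090), BOP1 (AT3G57130), BOP2 (AT2G41370), AS1 (AT2G37630) and AS2 (AT1G65620). They were chosen by name, out of 29696 gene rows in the table, with earlier results of these data known. Their levels were followed through all 40 seedling libraries. The libraries came from Col-0 plants of 4 genotypes, ago5, ago9, ago59 (by its name taken to lack AGO5 and AGO9 together; the labels do not spell this out) and the wild type (WT). AGO5 and AGO9 encode ARGONAUTE proteins, which carry small RNAs. Shoot apices were taken 7 d after germination from plants on soil under 16 h of light and 8 h of dark. For each replicate 100 nuclei were sorted and their RNA was turned into a Smart-seq3 library, a method that covers transcripts along their length. The stem-cell nuclei, labelled cherry in the titles, gave 8 ago5, 7 ago9, 7 ago59 and 5 WT libraries. The non-stem nuclei, labelled dapi after the DNA stain, gave 3 ago5, 4 ago9, 3 ago59 and 3 WT libraries. The labels used here name neither the mutant alleles nor the promoter that drives mCherry, and do not say whether nuclei with mCherry were kept out of the dapi sort. They also do not say whether replicates came from separate plants, so p-values measure the spread between these libraries.

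Boundary cells form a narrow band of slow growth between the meristem, where the stem cells lie, and each new leaf. The NAC transcription factors CUC1, CUC2 and CUC3 set up this band together with the class I KNOX gene STM, and miR164 limits CUC1 and CUC2 by cutting their RNA. LAS and LOF1 act in boundaries and in the making of axillary meristems, LOB and the BOP proteins act at the base of organs, and AS1 and AS2 keep KNOX genes off in leaves.

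The match of miR164 to the CUC genes is shown first, since it separates CUC1 and CUC2 from the other boundary genes. The mature sequences below are in DNA letters, from the RefSeq annotation of TAIR10.1, with the seed (bases 2 to 8) in capitals. All 3 family members share that seed.
ath-miR164a: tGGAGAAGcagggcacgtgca
ath-miR164b-5p: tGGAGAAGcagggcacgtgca
ath-miR164c-5p: tGGAGAAGcagggcacgtgcg
The site in CUC1 lies at chr3:5111137-5111157 on the plus strand and the site in CUC2 at chr5:21902301-21902321 on the minus strand, both in coding sequence of the third exon. Capitals mark bases identical to the perfect complement of miR164a.
CUC1 site: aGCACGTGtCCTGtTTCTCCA
CUC2 site: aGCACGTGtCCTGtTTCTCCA
CUC3 best stretch: caCAtGctaCtaGaTTCTCCA
The sites in CUC1 and CUC2 were identical to each other and matched the complement at 18 of 21 bases. Counted from 1 at the 5′ end of the site, they differed from the complement by T1A, C9T and C14T. The best stretch of CUC3, at chr1:28672053-28672073 on the minus strand, matched at 12 of 21 bases, and the best stretches of the other 7 genes matched at 11 to 13.

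Seedling libraries held 1.41 to 5.75 M counts in stem-cell nuclei and 2.14 to 6.24 M counts in non-stem nuclei (M stands for 1000000). Between 18.6% and 36.0% of counts fell on organelle or ribosomal RNA genes. The sort was checked on markers: CLV3, the stem-cell peptide gene, had a median of 17.1 counts per 1000000 (CPM) in stem-cell nuclei and 0 in non-stem nuclei, and was called higher (log2 fold change 7.79 ± 0.63, SE). WUS, the gene of the organizing centre below the stem cells, was also called higher, by 5.71 ± 1.08. Neither gene passed the filter on low counts in the non-stem libraries alone, so both entered the test through stem-cell libraries. In non-stem nuclei CLV3 was at 0 in ago5 and WT, and WUS in ago9 and ago59. Both fold changes therefore depend on the fit's prior count, and the calls are a description. The summed level of 4 mesophyll genes was 15893 to 32573 CPM in stem-cell nuclei and 19460 to 40222 CPM in non-stem nuclei, so leaf transcripts were abundant in both, and each of the 4 was called lower in stem-cell nuclei, by 0.20 to 0.49 on the log2 scale. No phloem, xylem, guard-cell or trichome marker of the 7 listed was called, while the epidermal gene FDH, 1 of 3 epidermal markers, was called lower (-0.37 ± 0.11), a call that ended without ago5 non-stem replicate 4 (adjusted p = 0.0585) and without ago59 non-stem replicates 1 and 3 (0.0584). The mCherry transcript had counts in 27 of 27 stem-cell libraries and in 3 of 13 non-stem libraries. Of these 3, ago59 replicate 1 had 4 counts and ago59 replicate 3 had 18, while ago5 replicate 4 had 1. Their part in the results was followed by a fit without the first 2 of these libraries, chosen after seeing the data. That fit keeps 1 ago59 non-stem library, replicate 2, so the ago59 part of its averaged values rests on that library. AGO9 had a median of 7.26 CPM in ago9 and 12.0 CPM in ago59 stem-cell libraries, against 77.7 CPM in WT stem-cell libraries, with overlapping ranges for ago9 (0 to 42.6 CPM) and WT (35.7 to 139.0 CPM). AGO5 had a median of 8.74 CPM in ago5 and 8.68 CPM in ago59, against 17.3 CPM in WT stem-cell libraries, and the ranges overlapped, so AGO5 RNA does not check those labels.

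CUC1, CUC2, LAS and LOF1 rose in stem-cell nuclei relative to non-stem nuclei when the 4 genotypes were averaged with equal weight, and no boundary gene fell. A gene is called when its Benjamini-Hochberg adjusted p is under 0.05 in edgeR's quasi-likelihood test over all 20753 features tested; every adjusted p below is of this kind unless another is named. All 10 genes passed the filter on low counts. Of these, 4 of 10 were called higher, beside 4.06% of all features (6.93% were called in either direction). CUC1, CUC2, LOF1 and BOP1 did not pass that filter on the non-stem libraries alone. They entered the test through stem-cell libraries, where they had more counts, so 4 of 10 is a description and not independent support. The median log2 fold change of the 10 genes was 1.87, beside 0.06 over all features tested. From pooled counts, with groups at 0 set at 3 counts over the group, the median of the 10 genes was 1.49. The most mCherry outside the stem-cell group was in ago59 non-stem replicates 1 and 3. Without them the log2 fold changes were 4.09 for CUC1, 3.28 for CUC2, 4.82 for LAS and 5.39 for LOF1. The ago59 non-stem group was then replicate 2 alone, so these sizes are given without a test. LAS and LOF1 had no count in that library, and their values depend on the fit's prior count. In such sorted pools, fewer cells of a type and less RNA per cell cannot be told apart.

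**Figure D1:**
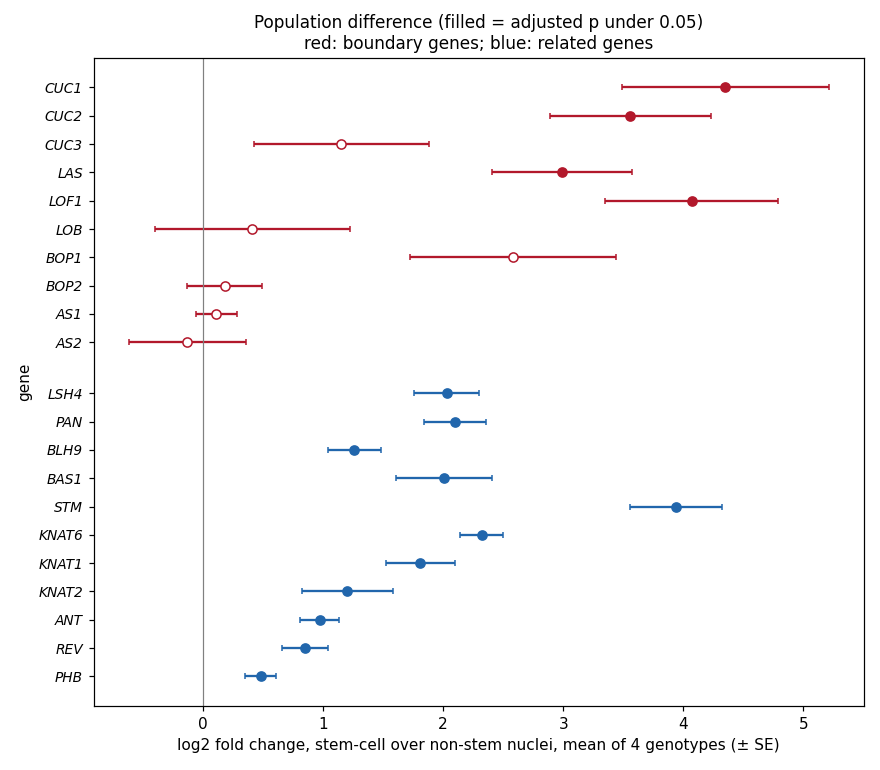
Log2 fold change of stem-cell over non-stem nuclei, averaged over 4 genotypes, with its SE, for the 10 boundary genes (red) and for related genes (blue); filled points were called. The fitted values of LOF1 and BOP1 include a group at 0. CUC1, LOF1, CUC2 and LAS lie between 2.99 and 4.35, and AS1, AS2, BOP2 and LOB lie within 1 SE of 0.

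CUC1, which encodes a NAC factor of the cotyledon and leaf boundary, had more stem-cell libraries above all non-stem libraries than any of the other 9 genes. In stem-cell nuclei its lowest, median and highest levels were 0, 3.16 and 5.55 CPM in ago5, 0, 3.92 and 16.8 CPM in ago9, and 0, 2.83 and 15.3 CPM in ago59, and the 5 WT libraries had 1.03, 2.29, 2.82, 6.37 and 6.64 CPM. In non-stem nuclei it had 0, 0 and 0.413 CPM in ago5, 0, 0, 0 and 0.805 CPM in ago9, 0, 0.358 and 0.855 CPM in ago59, and 0, 0 and 0.160 CPM in WT. Over all libraries this is 393 counts in 27 stem-cell libraries and 8 counts in 13 non-stem libraries. Of the 27 stem-cell libraries 22 lay above the highest non-stem library, against 18 for LOF1 and 17 for LAS, and the CUC1 ranges overlapped only because 4 stem-cell libraries had no count and 1 had 0.726 CPM. The log2 fold change was 4.35 ± 0.86 (SE, adjusted p = 0.000613), and 4.96 without ago9 non-stem replicate 3. That removal left ago9 non-stem nuclei at 0 for CUC1, so 4.96 depends on the fit's prior count.

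CUC2, the closest relative of CUC1 in function, averaged 6.55 ± 5.33 CPM in 27 stem-cell libraries and 1.52 ± 3.44 CPM in 13 non-stem libraries (SD). In stem-cell nuclei its lowest, median and highest levels were 0, 5.29 and 17.8 CPM in ago5, 2.36, 5.07 and 15.0 CPM in ago9, and 1.42, 8.55 and 20.0 CPM in ago59, and WT libraries had 0.474, 1.37, 4.01, 5.63 and 5.68 CPM. In non-stem nuclei it had 0, 0 and 0.207 CPM in ago5, 0, 0, 0 and 0.332 CPM in ago9, 1.07, 3.86 and 12.4 CPM in ago59, and 0, 0.468 and 1.44 CPM in WT. The ago59 non-stem libraries thus held most of the CUC2 counts outside the stem-cell group, 43 of 55, and lay within or just under the range of the ago59 stem-cell libraries. The highest of them, replicate 2, had no mCherry, CLV3, WUS or STM count. It had 27 counts (11.5 CPM) of KNAT1, another class I KNOX gene. KNAT1 had counts in 13 of 13 non-stem libraries, with a median of 11.5 CPM, so that level does not set replicate 2 apart. The averaged log2 fold change was 3.56 ± 0.67 (adjusted p = 0.000305).

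CUC3, a NAC gene of the same boundaries without a miR164 site, was not called (1.15 ± 0.73, adjusted p = 0.407). Its log2 fold change was 1.88 without ago5 non-stem replicate 4 and 2.30 without ago59 non-stem replicate 3, and it was called in neither case (adjusted p = 0.173 and 0.155). Leaving out that ago59 library put ago59 non-stem nuclei at 0 for CUC3, so 2.30 depends on the fit's prior count. It averaged 10.1 ± 11.4 CPM in stem-cell libraries and 5.05 ± 9.42 CPM in non-stem libraries, and a single non-stem library, ago5 replicate 4, had 34.7 CPM. By pooled counts CUC3 was 4.78-fold higher in ago9 stem-cell nuclei (95% exact interval 3.29 to 7.16) and 6.46-fold higher in ago59 (3.20 to 15.2), whereas the ratio was 0.789 in ago5 (0.655 to 0.953) and 0.621 in WT (0.403 to 0.951). Such intervals, here and below, cover counting error only, which is far smaller than the spread between these libraries. The ago5 ratio rested on that library, which held 168 of the 177 CUC3 counts in ago5 non-stem nuclei: without it the ratio was 8.32. The mean level of CUC3 was 15.7 CPM in ago5 stem-cell nuclei and 12.7 CPM in ago5 non-stem nuclei, and the fitted log2 fold change was 0.30 ± 1.35, so the pooled counts and the means gave opposite directions in ago5. In WT the ratio was 0.232 without stem replicate 8 and 0.984 without non-stem replicate 4, and in ago9 it was 3.06 without stem replicate 6 and 10.9 without non-stem replicate 3.

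LAS, a GRAS-family regulator needed to start axillary meristems, had counts in 27 of 27 stem-cell libraries and in 6 of 13 non-stem libraries. In stem-cell nuclei its lowest, median and highest levels were 9.15, 25.4 and 53.1 CPM in ago5, 15.4, 20.4 and 64.6 CPM in ago9, and 3.08, 23.6 and 42.3 CPM in ago59, and WT libraries had 2.60, 4.22, 19.0, 19.4 and 28.3 CPM. In non-stem nuclei it had 0, 0 and 15.5 CPM in ago5, 0, 0, 0 and 2.99 CPM in ago9, 0, 1.07 and 19.0 CPM in ago59, and 0, 1.22 and 4.01 CPM in WT. The non-stem libraries at 15.5 and 19.0 CPM lay within the stem-cell range, and the others lay at or below 4.01 CPM. The log2 fold change was 2.99 ± 0.58 (adjusted p = 0.000406), and 3.86 without ago59 non-stem replicate 1. It was 4.74 without ago5 non-stem replicate 4, which held 75 of the 170 non-stem counts, and 4.07 without ago9 non-stem replicate 1. Each of these removals left that genotype's non-stem group at 0, so 4.74 and 4.07 depend on the fit's prior count.

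LOF1, a MYB factor that separates branches from their subtending leaf, likewise had counts in 27 of 27 stem-cell libraries and in 6 of 13 non-stem libraries. In stem-cell nuclei its lowest, median and highest levels were 1.52, 8.54 and 17.8 CPM in ago5, 4.29, 7.68 and 23.1 CPM in ago9, and 0.174, 2.60 and 16.1 CPM in ago59, and WT libraries had 1.83, 2.58, 2.60, 2.82 and 12.3 CPM. In non-stem nuclei it had 0 CPM in each of the 3 ago5 libraries, 0, 0, 0.332 and 3.63 CPM in ago9, 0, 1.75 and 2.86 CPM in ago59, and 0, 0.468 and 0.608 CPM in WT. In ago5, ago9 and WT every stem-cell library lay above every non-stem library of the same genotype, and in ago59 the ranges overlapped. The share of all features that separate in this way was not counted, so the separation is a description. The log2 fold change was 4.07 ± 0.72 (adjusted p = 0.000128), and 4.74 without ago9 non-stem replicate 2. Because a fitted change against a group at 0 depends on the fit's prior count, LOF1 is also given from pooled counts with ago5 non-stem nuclei set at 3 counts over the group: the mean over genotypes was then 3.32.

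**Figure D2:**
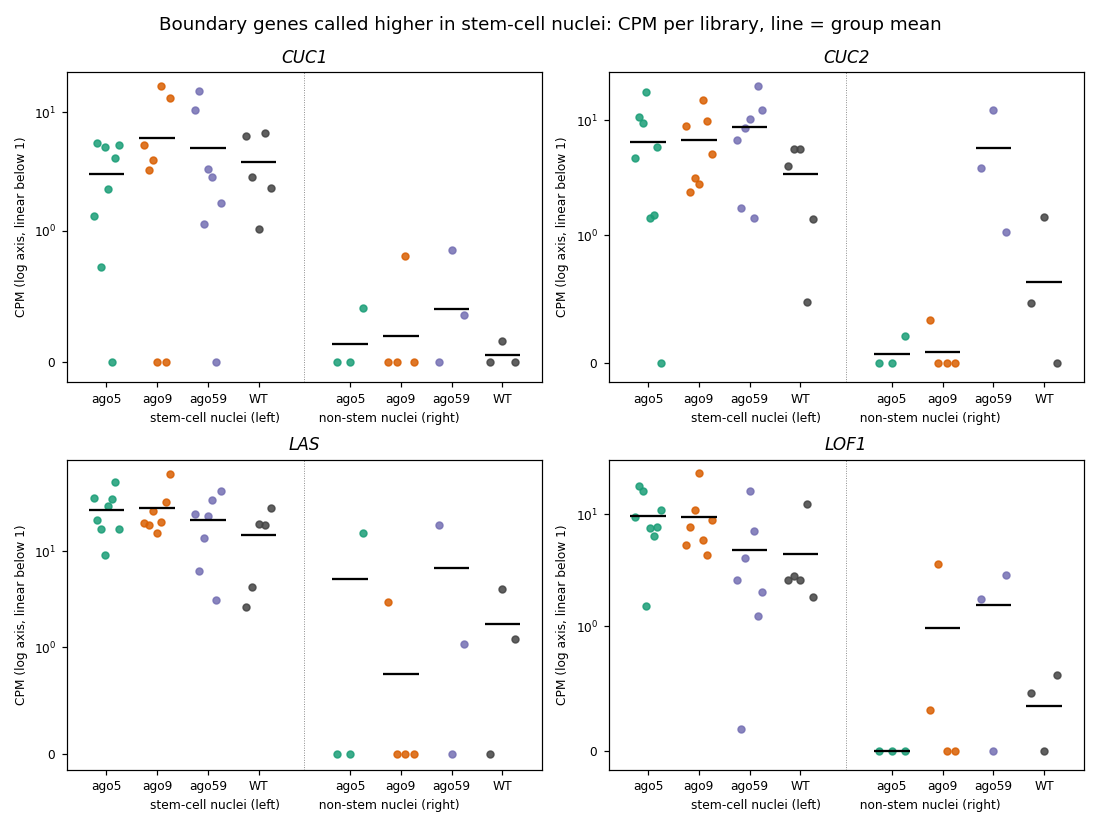
CPM of CUC1, CUC2, LAS and LOF1 in each seedling library (points) with group means (lines), stem-cell groups left of non-stem groups, on a log axis that is linear below 1. Most stem-cell points lie above the non-stem points of their genotype; the ago59 non-stem libraries reach 12.4 CPM for CUC2 and 19.0 CPM for LAS.

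LOB, the founding gene of the LATERAL ORGAN BOUNDARIES family, was near the detection limit in both populations, with 128 counts in 27 stem-cell libraries and 75 counts in 13 non-stem libraries. It averaged 1.81 ± 2.18 CPM in stem-cell nuclei and 2.08 ± 2.99 CPM in non-stem nuclei, and the difference was not called (0.41 ± 0.81, adjusted p = 0.851). Without ago5 non-stem replicate 1, the only ago5 non-stem library with LOB counts, it was 1.37 ± 0.85 (adjusted p = 0.391). That value depends on the fit's prior count, since it stands against an ago5 non-stem group at 0. AS2, a relative of LOB that acts with AS1 on the upper side of leaves, averaged 7.04 ± 6.13 CPM in stem-cell nuclei and 7.87 ± 5.77 CPM in non-stem nuclei (-0.13 ± 0.49, adjusted p = 0.94). Its highest libraries reached 24.1 CPM in stem-cell nuclei and 16.9 CPM in non-stem nuclei, so the ranges overlapped over nearly their whole length.

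BOP1 and BOP2, paralogous BTB-ankyrin proteins of the leaf base, differed in level. BOP2 averaged 18.3 ± 10.4 CPM in stem-cell nuclei and 16.1 ± 8.36 CPM in non-stem nuclei, had counts in all 40 libraries and was not called (0.18 ± 0.31, adjusted p = 0.829). BOP1 averaged 3.04 ± 3.60 CPM in stem-cell nuclei and 1.02 ± 1.58 CPM in non-stem nuclei, and its log2 fold change of 2.58 ± 0.86 missed the threshold (adjusted p = 0.058). The adjusted p was 0.0288 with DESeq2 (2.50 ± 0.81), 0.253 without ago59 non-stem replicates 1 and 3, and 0.0460 to 0.0967 without single libraries. The single libraries whose removal put it under the threshold were ago59 stem 6, ago5 stem 7, ago9 stem 5 and ago9 stem 6. BOP1 had no count in the 3 ago59 non-stem libraries, against 91 counts in the 7 ago59 stem-cell libraries. At a floor of 3 counts over the group it was at least 9.61-fold higher in ago59 stem-cell nuclei. Replicate 2 alone gave 48 of those 91 counts, and without it the bound was 5.88-fold; without non-stem replicate 1 or 3 it was 6.18-fold or 6.24-fold. In WT the order was turned, with 0, 0.469, 0.516, 1.42 and 2.83 CPM in stem-cell nuclei and 0.468, 2.73 and 5.17 CPM in non-stem nuclei. With that floor in place of 0 the mean pooled log2 ratio of BOP1 over genotypes was 2.01.

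AS1, a MYB protein that represses KNOX genes in leaf primordia, was the most abundant and the most even of the 10 genes. It averaged 95.4 ± 35.4 CPM in stem-cell nuclei and 91.1 ± 31.2 CPM in non-stem nuclei, with a log2 fold change of 0.11 ± 0.17 (adjusted p = 0.814). AS1 (chr2:15781232-15783480, minus strand) overlaps the actin gene ACT1 on the other strand, and BOP2 (chr2:17237727-17240609, minus strand) overlaps AT2G41375. The sources used here do not say whether counting used strand, so the levels of AS1 and BOP2 are uncertain to that extent, while the other 8 genes overlap no annotated gene.

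**Figure D3:**
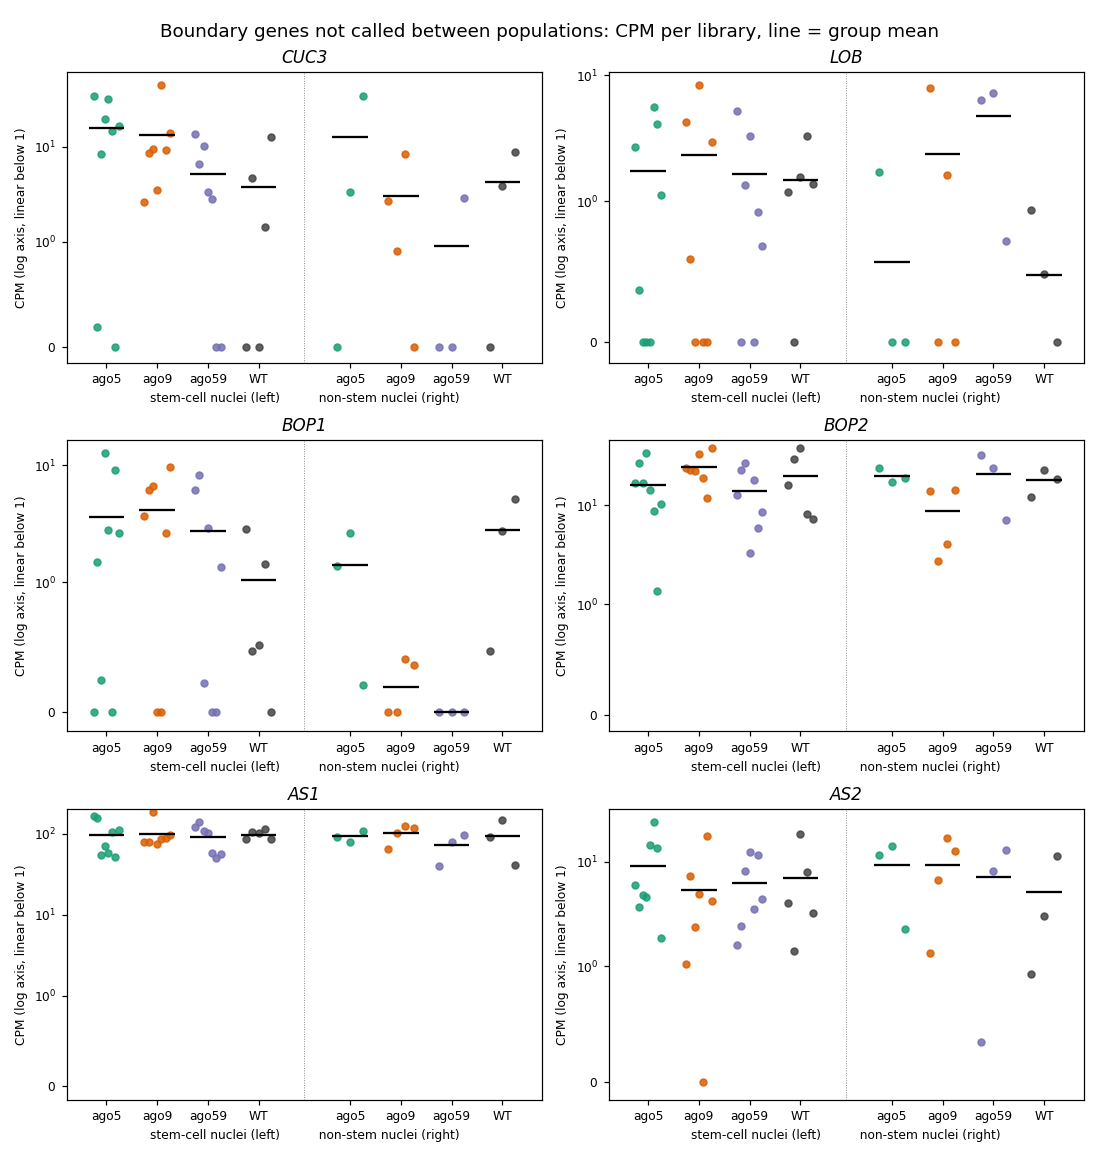
CPM of CUC3, LOB, BOP1, BOP2, AS1 and AS2 in each seedling library (points) with group means (lines), stem-cell groups left of non-stem groups, on a log axis that is linear below 1. The groups overlap for each gene, AS1 lies between 40.0 and 186.5 CPM throughout, and BOP1 is at 0 in the 3 ago59 non-stem libraries.

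Divided by exon length, so that genes can be set side by side, the mean level in stem-cell nuclei was 49.7 CPM per kb for AS1, 11.9 for LAS, 8.41 for BOP2, 7.04 for CUC3, 5.23 for LOF1, 4.52 for CUC2, 3.61 for CUC1, 3.24 for AS2, 1.66 for BOP1 and 1.57 for LOB. Neighbours in this order overlapped in their ranges. In non-stem nuclei the order was AS1 at 47.4, BOP2 at 7.42, AS2 at 3.63, CUC3 at 3.51, LOB at 1.80, LAS at 1.70, CUC2 at 1.05, BOP1 at 0.559, LOF1 at 0.526 and CUC1 at 0.161 CPM per kb. These are means over all libraries of a population, in which genotypes with more libraries weigh more. Within genotypes AS1 ranked first in all 8 groups. LAS ranked second in ago5, ago9 and ago59 stem-cell nuclei, whereas in WT stem-cell nuclei BOP2 (9.01 CPM per kb) lay above LAS (7.43). In non-stem nuclei the lowest gene was LOF1 in ago5, CUC2 in ago9, BOP1 in ago59 and CUC1 in WT. A stem-cell library had counts for 7 to 10 of the 10 genes, with a median of 9, and a non-stem library for 4 to 9, with a median of 7.

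Within single genotypes fewer boundary genes were called, and these comparisons rest on 3 or 4 non-stem libraries each. In ago5, 1 of 10 boundary genes was called higher (0.516% of features were): LOF1 had 270 counts in stem-cell nuclei and 0 in non-stem nuclei (adjusted p = 0.0178), which at a floor of 3 counts over the group is at least 39.0-fold higher (at least 20.9-fold without ago5 non-stem replicate 4). In ago9, 2 of 10 were called higher (0.27% of features). CUC2 had 112 counts in ago9 stem-cell nuclei and 1 in ago9 non-stem nuclei, a pooled ratio of 76.8 (95% exact interval 13.5 to 3060, log2 fold change 5.72 ± 1.40, adjusted p = 0.0484). LAS had 488 counts in ago9 stem-cell nuclei and 9 in ago9 non-stem nuclei, a pooled ratio of 37.2 (19.4 to 81.8, log2 fold change 5.08 ± 1.20, adjusted p = 0.0353). In ago59 and in WT 0 of 10 were called (0.299% and 0.13% of features in either direction), and DESeq2 called 0 as well. Under an unadjusted p of 0.05 were 2 of 10 in ago59 (9.09% of features) and 3 of 10 in WT (6.69%). The CUC2 and LAS calls ended with robust quasi-likelihood (adjusted p = 0.0624 and 0.0549), and the LOF1 call when only the ago5 groups were fitted (adjusted p = 0.0505). The CUC2 call also ended with no filter on low counts (0.0886), with only the ago9 groups (0.0786) and without the 2 ago59 non-stem libraries with the most mCherry (0.0502). It ended without any one of 28 of the 40 libraries (adjusted p up to 0.247), LAS in ago9 without any one of 6 (up to 0.215) and LOF1 in ago5 without any one of the 3 ago5 non-stem libraries (0.0840 to 0.140).

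Whether the population difference itself differed between the 4 genotypes was tested by an interaction term, and 0 of 10 boundary genes were called (0.00482% of features, 1 of 20753). The smallest adjusted p was 0.748, for CUC2, whose unadjusted p was 0.00492, and DESeq2 called 0. BOP1 (0.0203) and LOF1 (0.0237) were also under an unadjusted p of 0.05, as were 5.35% of all features. For CUC2 the fitted log2 fold changes were 5.65 ± 1.56 in ago5, 5.72 ± 1.40 in ago9, 0.59 ± 1.09 in ago59 and 2.28 ± 1.27 in WT. For BOP1 they were 1.32 ± 1.57 in ago5, 4.24 ± 1.70 in ago9, 6.08 ± 2.23 in ago59 and -1.30 ± 1.53 in WT. For LOF1 they were 7.90 ± 1.83 in ago5, 3.17 ± 1.17 in ago9, 1.59 ± 1.21 in ago59 and 3.64 ± 1.45 in WT. The highest values of BOP1 and LOF1 stand against non-stem groups at 0 and depend on the fit's prior count. For LAS (unadjusted p = 0.122) they were 2.34 ± 1.09 in ago5, 5.08 ± 1.20 in ago9, 1.62 ± 1.06 in ago59 and 2.91 ± 1.19 in WT, and for CUC1 (0.845) they lay between 3.54 ± 1.67 in ago59 and 5.20 ± 1.89 in WT. CUC1, CUC2, LAS and LOF1 were higher in stem-cell nuclei in 4 of 4 genotypes by pooled counts. They were picked by the average over these same genotypes, so the shared direction is not separate support.

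In stem-cell nuclei the mutants were then set against WT, to ask whether losing AGO5, AGO9 or both changes boundary genes there. None of the 10 genes was called in ago5 (1.33% of 18633 features were), in ago9 (0.671%) or in ago59 (2.94%), and none had an unadjusted p under 0.05; DESeq2 called 0 in each as well. The log2 fold changes ran from -0.51 to 1.95 in ago5, from -0.50 to 1.70 in ago9 and from -0.58 to 1.19 in ago59, and their medians were 0.51, 0.63 and 0.11, beside 0.04, 0.01 and 0.03 over all features tested. These comparisons share the 5 WT libraries.

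CUC3 gave the widest values. In stem-cell nuclei its lowest, median and highest levels were 0, 15.6 and 34.1 CPM in ago5, 2.64, 9.24 and 44.9 CPM in ago9, and 0, 3.31 and 13.6 CPM in ago59, and the WT libraries had 0, 0, 1.42, 4.69 and 12.8 CPM. Its log2 fold change over WT was 1.95 ± 1.12 in ago5 (adjusted p = 0.57), 1.67 ± 1.13 in ago9 (0.825) and 0.41 ± 1.09 in ago59 (0.946). The groups overlapped, and the adjusted p was 0.226 or more in each alternative and 0.277 or more without any single library. Without WT stem replicate 8, the WT library at 12.8 CPM, the values were 3.41 ± 1.32 in ago5, 3.12 ± 1.32 in ago9 and 1.86 ± 1.25 in ago59, and without ago9 stem replicate 6 the ago9 value was 0.93 ± 1.13. CUC2, LAS and BOP1 had positive values in all 3 mutants, with SEs about as large as the values. CUC2 had 0.76 ± 0.85 in ago5, 0.84 ± 0.87 in ago9 and 1.19 ± 0.88 in ago59. LAS had 0.76 ± 0.55 in ago5, 0.79 ± 0.56 in ago9 and 0.38 ± 0.55 in ago59. BOP1 had 1.47 ± 1.30 in ago5, 1.70 ± 1.33 in ago9 and 1.13 ± 1.30 in ago59, and without WT stem replicate 3 it had 2.38, 2.60 and 2.04; in ago5 it had 0.88 without ago5 stem replicate 5. AS1 was the most tightly measured, at -0.14 ± 0.28 in ago5, -0.14 ± 0.29 in ago9 and -0.23 ± 0.29 in ago59. With SEs between 0.28 for AS1 and 1.37 for LOB, changes of the sizes seen here were not detectable with these libraries, which does not show that the genotypes are alike.

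**Figure D4:**
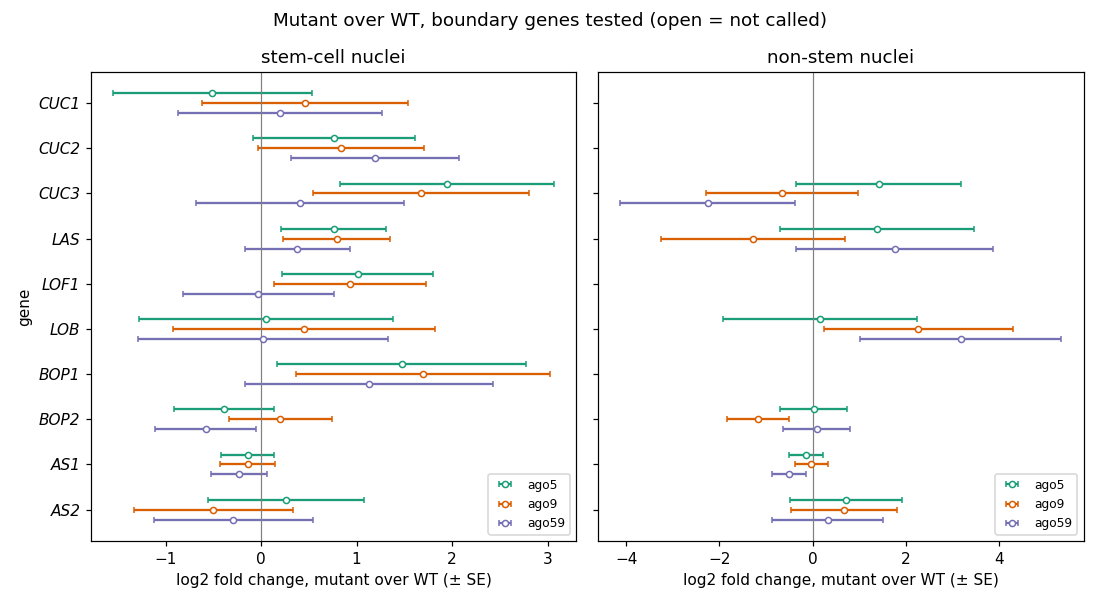
Log2 fold change of ago5, ago9 and ago59 over WT, with its SE, in stem-cell nuclei (left) and in non-stem nuclei (right) for the boundary genes tested; no point was called. In stem-cell nuclei CUC3 and BOP1 in ago9 and ago5 have the highest values, and AS1 lies within 1 SE of 0 in each mutant.

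In non-stem nuclei 6 of the 10 genes passed the filter on low counts, and CUC1, CUC2, LOF1 and BOP1 did not. Of the 6, none was called in ago5 (0.382% of 18334 features were), ago9 (0.245%) or ago59 (1.2%), none had an unadjusted p under 0.05, and DESeq2 called 0. LOB had the highest value: 0.715, 6.32 and 7.26 CPM in ago59, against 0, 0.481 and 0.936 CPM in WT, a log2 fold change of 3.18 ± 2.16 (adjusted p = 0.686; 3.88 ± 2.73 without WT non-stem replicate 2). The ago59 and WT ranges for LOB overlapped. With 3 or 4 libraries a group, SEs for CUC3, LAS and LOB were 1.64 to 2.16 on the log2 scale, and changes of these sizes were not detectable.

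Genes that work beside the boundary genes were examined as lists chosen for their known roles, with earlier results of these data known. The counts of called genes below are therefore descriptions. Of 4 class I KNOX genes, which keep meristem cells undifferentiated, 4 were called higher in stem-cell nuclei in the averaged comparison, in which 4.06% of all features were. STM averaged 67.3 ± 32.4 CPM in stem-cell nuclei and 5.01 ± 5.22 CPM in non-stem nuclei (log2 fold change 3.94 ± 0.38). It was 5.15 without ago5 non-stem replicate 1, which left ago5 non-stem nuclei at 0, so 5.15 depends on the fit's prior count. KNAT6 rose by 2.32 ± 0.18, KNAT1 by 1.81 ± 0.29 and KNAT2 by 1.20 ± 0.38. The KNAT2 call was lost without any one of 16 single libraries (adjusted p up to 0.0832). Of 24 boundary partners 19 were tested and 9 were called higher, with 0 lower, beside the same 4.06%. On the non-stem libraries alone 15 of the 24 passed the filter on low counts. Among them LSH4, a nuclear protein downstream of CUC1, averaged 30.8 ± 14.9 CPM in stem-cell nuclei and 7.37 ± 4.75 CPM in non-stem nuclei (2.03 ± 0.27), and PAN, a bZIP factor, rose by 2.10 ± 0.26. BLH9, the homeodomain partner of KNOX proteins also known as PENNYWISE, rose by 1.26 ± 0.22, and BAS1, a brassinosteroid-inactivating enzyme that LOB controls, rose by 2.01 ± 0.40 (2.73 without ago59 non-stem replicate 2). The other 5 called were DRN, DRNL, PNF, SYD and HAN. The median log2 fold change was 2.06 for the KNOX genes and 1.26 for the 19 partners, beside 0.06 over all features.

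Known repressors of CUC genes gave no call. Of the 8 listed, the 5 TCP genes that miR319 controls were tested, with log2 fold changes of -0.59 to 0.26 (smallest adjusted p = 0.197). Of the 5, 1 had an unadjusted p under 0.05, as did 19.7% of all features. The 3 miR164 precursor genes did not pass the filter: MIR164A had no count in 40 libraries, MIR164B had 13 counts in stem-cell nuclei and 2 in non-stem nuclei, and MIR164C had 4 in stem-cell nuclei and 0 in non-stem nuclei. Of 10 genes of leaf polarity and growth 3 were called higher, beside 4.06% of all features: ANT by 0.97 ± 0.16, REV by 0.85 ± 0.19 and PHB by 0.48 ± 0.13, each of which also has a role in the meristem or young primordium. The PHB call ended without ago59 non-stem replicates 1 and 3 (adjusted p = 0.0977). ARF3 (0.75 ± 0.27, adjusted p = 0.084) and PHV (0.35 ± 0.16, adjusted p = 0.195), also on this list, were not called. Their unadjusted p were 0.00797 and 0.0323. The 5 YABBY and KANADI genes, which act on the lower side of leaves, had values of -0.36 to 0.23. Of them 0 were called or had an unadjusted p under 0.05, beside 19.7% of all features under that p.

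Promoters were read for motifs of 2 families known to act on these genes. TGACAG, a sequence that KNOX-type homeodomain proteins bind, stood on either strand within 250 bases before the annotated start of CUC1, LAS and AS1, and in 5.78% of 28928 promoters of that length. GGNCCC, the core of TCP sites, stood in 0 of the 10 and in 7.24% of all. The promoters of CUC1 (chr3:5109532-5109781, plus strand) and LAS (chr1:20763594-20763843, plus strand) are printed from RefSeq TAIR10.1, as those of the called genes that hold TGACAG; capitals mark it or its reverse complement.
CUC1 promoter: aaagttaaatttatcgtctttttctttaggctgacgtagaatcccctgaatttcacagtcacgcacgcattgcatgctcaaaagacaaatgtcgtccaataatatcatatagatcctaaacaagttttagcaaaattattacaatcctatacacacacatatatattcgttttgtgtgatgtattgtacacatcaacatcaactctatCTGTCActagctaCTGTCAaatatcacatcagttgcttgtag
LAS promoter: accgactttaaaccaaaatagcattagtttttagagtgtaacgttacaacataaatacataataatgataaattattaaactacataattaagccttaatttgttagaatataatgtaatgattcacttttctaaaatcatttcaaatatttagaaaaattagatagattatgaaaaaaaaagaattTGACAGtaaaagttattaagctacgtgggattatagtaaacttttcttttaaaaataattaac
CUC1 held 2 copies and LAS held 1, while CUC2 and LOF1, which also rose, held none in this window. A match is a description of letters, not a site.

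Over the 27 stem-cell libraries, centred on their genotype means, the boundary genes did not move as a block from library to library. Among the 9 genes with enough counts the Pearson r of log2(CPM + 1) was 0.59 for CUC1 with BOP1 and -0.64 for CUC1 with AS2, and lay between -0.30 and 0.31 for every other pair. These points share libraries and depth, and the values are given as a description. BOP1 had no count in 7 of the 27 libraries and CUC1 in 4, and such low counts limit r. The features most like each gene among 17296 had r of 0.66 to 0.78: GDI2 for CUC1 (0.78), AT2G41670 for CUC2 (0.78), MES9 (0.70) and AT5G49440 (0.70) for CUC3, AT5G15700 for LAS (0.77), AT5G57070 for LOF1 (0.71), AT3G14740 for BOP1 (0.74), iqd21 for BOP2 (0.75), SLP1 for AS1 (0.74) and GC4 for AS2 (0.70). Each is the highest of 17296 values over only 27 libraries, and whether it exceeds the highest value among unrelated features was not tested. No boundary gene was among the 3 features most like another.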

How the data were processed

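The authors deposited 1 table of expected counts (estimates; 10.3% of seedling values were not whole numbers), for 67 libraries; 60 columns matched a sample by name and 7 pollen columns were not used. The submitters' processing notes name genome build TAIR10 and DESeq2; aligner, counter and annotation are not given in the sources used here. Counts were rounded. edgeR 4.0.16 in R 4.3.3 used TMM scaling, filterByExpr (minimum count 10, total 15) and quasi-likelihood F tests with Benjamini-Hochberg adjustment over all features, on 40 libraries for population contrasts, 27 for mutants in stem-cell nuclei and 13 in non-stem nuclei. SE is the absolute log2 fold change over the square root of F. CPM is counts per 1000000 of a library. The fits were tested on counts simulated with 1 common spread, with 200 features changed by 2 or 3 on the log2 scale. The averaged comparison recovered 92% of changes of 2 and 98% of changes of 3, with 6 false calls. For ago59 against WT the shares were 23% and 82% in stem-cell nuclei (4 false calls). In non-stem nuclei they were 0% and 2% (0 false calls). The genes named are the 10 members, and from other lists the called genes, at most 4 per list by adjusted p, with STM, KNAT1, CLV3 and WUS; the remaining called names were added after their values were seen. Members and lists were chosen with earlier results of these data known. Alternatives were RLE size factors, no filter, DESeq2 1.42.0, robust fitting, removal of organelle and ribosomal RNA genes, other sets of libraries, a replicate block and leaving out each library. No 2 replicates agreed within sampling noise (chi-square per degree of freedom at least 7.07 in 95 pairs).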

Additional observations from a re-analysis of the deposited data

Results flagged for a closer look

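In 10 of the 50 groups of 4 to 8 libraries examined, 1 library stood far above the rest. The rule used gives about 1 in 20 by chance for normally distributed values only. CPM of genes with few counts need not be so distributed, so 10 of 50 cannot be read against that rate. In 3 of the 10 every other library was at 0 and any count stands apart. In ago9 non-stem nuclei CUC1 had 0.805 CPM in replicate 3, CUC2 had 0.332 CPM and LAS 2.99 CPM in replicate 1, with the other libraries at 0, and LOF1 had 3.63 CPM in replicate 2, with the next at 0.332 CPM. In ago9 stem-cell nuclei CUC3 had 44.9 CPM in replicate 6 (next 13.9), LAS 64.6 CPM in replicate 8 (next 32.7), LOF1 23.1 CPM in replicate 5 (next 11.0), AS1 186.5 CPM in replicate 4 (next 96.7) and AS2 17.5 CPM in replicate 7 (next 7.39). In WT stem-cell nuclei LOF1 had 12.3 CPM in replicate 7 (next 2.82). No single replicate carried more than 2 of these values.

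AS1 also had counts in mutant pollen, outside the seedling comparisons. It had 47 to 50 counts in the 3 ago5 vegetative libraries, 36 to 56 in the 4 ago9 libraries and 35 to 68 in the 4 ago59 libraries, above the 3 counts that a zero allows. The pollen came from older plants than the seedlings, and its libraries began from a set mass of RNA, not from counted nuclei. No WT pollen column matched a sample by name, so no WT stands beside these counts, and they are not scaled to depth. AS1 overlaps ACT1 on the other strand, and the part of that overlap in these counts was not tested.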

How the results depend on the processing

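In the averaged comparison CUC1, CUC2, LAS and LOF1 were called under each alternative fit of all 40 libraries. The highest adjusted p was 0.0329 for CUC2, 0.0156 for LAS and 0.00834 for LOF1. They were also called without any single library of 40, and the number of boundary genes called was 4 or 5. In ago5 the count of 1 became 2 with DESeq2, 0 when only the groups compared were fitted and 0 with the replicate block (LOF1 0.0995), and 0 to 2 without single libraries (2 without ago5 stem 9; LOF1 was lost without any of the ago5 non-stem libraries, adjusted p 0.0840 to 0.140). In ago9 the count of 2 became 1 with no filter, 1 with only the groups compared, 0 with the replicate block (CUC2 0.932, LAS 0.321), 0 with robust fitting, and 1 without ago59 non-stem replicates 1 and 3, an alternative chosen after seeing the data; without single libraries it was 0 to 2. CUC2 in ago9 was lost without any one of 28 libraries. LAS in ago9 was lost without any one of ago9 non-stem 2, 3 or 4 or ago9 stem 4, 7 or 8 (adjusted p up to 0.215). Without ago9 non-stem 1 the log2 values of CUC2 and LAS were 7.34 and 9.39. Both then stand against a group at 0 and depend on the fit's prior count. No boundary gene was called in any mutant comparison or in the interaction under any alternative or left-out library. The AS2 averaged value ran from -0.30 to 0.21 without single libraries (above 0 without WT non-stem 4 and ago59 non-stem 3), and CUC3 in ago59 against WT stem-cell nuclei from -0.05 to 1.86 (below 0 without ago59 stem 1). The causes were not tested.

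Replicate numbers did not pair libraries: deviations of same-numbered libraries correlated at -0.0288 to 0.0322, and in 14 of 62 sets of a library and another group the best correlation was with the own number. With the replicate block 480 features were called in the averaged comparison against 1439 without it; the calls of KNAT2, REV, PHB, RBCS1A and LHCB1.1 were lost (adjusted p 0.103 to 0.276), and BOP1 was at 0.449. Without ago59 non-stem 1 and 3 those of PHB (0.0977) and FDH (0.0584) were lost. Over the alternatives features called ran from 480 to 1911 in the averaged comparison, 50 to 533 (main 207) within ago5, 29 to 227 (73) within ago9, 15 to 225 (62) within ago59, 10 to 125 (27) within WT and 1 to 123 (1) for the interaction. For mutants against WT they ran from 160 to 498 (248), 87 to 305 (125) and 402 to 851 (547) in stem-cell nuclei, and 46 to 271 (70), 41 to 229 (45) and 169 to 544 (220) in non-stem nuclei, for ago5, ago9 and ago59. Depth limits CUC1, LOF1, BOP1, CUC2 and LOB most, with 8 to 75 counts each over the 13 non-stem libraries.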

Other observations

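Among the other boundary genes in mutant pollen, BOP1 had 2 to 13 counts in each of 11 vegetative libraries and none in 9 sperm libraries. CUC1, CUC2 and CUC3 had no count in these 20 libraries. LAS had 3 counts in a single vegetative library and LOF1 had 3 counts in 2 sperm libraries. AS1 had 545 counts in vegetative libraries and 15 in sperm libraries.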
